A study of Mus musculus with 8 samples.

Results

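Transcript levels of 9 genes of catecholamine synthesis, transport and breakdown were examined in mouse dorsal root ganglia (DRG), where the cell bodies of somatosensory neurons lie next to the spinal cord. The genes are Th, Ddc, Dbh, Pnmt, Gch1, Slc18a1, Slc18a2, Slc6a2 and Maoa, and they are 9 of the 55414 Ensembl gene IDs that were counted. They were chosen by the measured rise of Th in embryos overexpressing Dach1, so the difference in Th is given as a description with no test, and the question put to the data was whether the other 8 genes moved with it.

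Bulk RNA-seq had been carried out on 8 libraries from E18.5 embryos in 2 groups of 4, from DRG that the labels describe as neurons and glia. AD1 OE embryos had the genotype AdvillinCre/+;Rosa26Dach1/+, in which Cre, expressed from Advillin in sensory neurons, removes a stop cassette in front of a Dach1-IRES-EGFP copy at Rosa26. Control embryos had the genotype Advillin+/+;Rosa26Dach1/+, so both groups carried the Rosa26 allele, which was kept on a mixed C57Bl/6J and CD1 background, and they differed in the Cre allele together with the activated Dach1 copy. AD1 OE pups die around birth, and the samples were taken shortly before. A lower transcript level in such a bulk sample can come from fewer cells of a type or from less RNA per cell, and these cannot be told apart.

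Catecholamines are made from tyrosine in a short chain of enzymes. Tyrosine hydroxylase (Th) makes L-DOPA in the rate-limiting step with tetrahydrobiopterin as cofactor, aromatic L-amino acid decarboxylase (Ddc) makes dopamine, dopamine β-hydroxylase (Dbh) makes noradrenaline and phenylethanolamine N-methyltransferase (Pnmt) makes adrenaline. Vesicular transporters load the amines into granules, plasma membrane transporters take them back up and monoamine oxidases break them down. Sympathetic neurons express the noradrenergic set of these genes, whereas in the DRG Th is best known as a marker of C-LTMRs, unmyelinated low-threshold mechanoreceptors of hairy skin.

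The upstream sequences of Th and Dbh are shown because Th is the gene that chose the set and Dbh the enzyme that defines a noradrenergic cell. Both are the 120 bases before the RefSeq start site on GRCm38.p6, read 5′ to 3′ along the gene. Capitals mark TGACGTCA, the cyclic AMP response element (CRE), which is a well-known element of the Th promoter.
Th, chr7:142899996-142900115, minus strand: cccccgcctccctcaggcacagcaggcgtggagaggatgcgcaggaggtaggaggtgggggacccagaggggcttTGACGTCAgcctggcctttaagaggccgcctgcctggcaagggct
Dbh, chr2:27165387-27165506, plus strand: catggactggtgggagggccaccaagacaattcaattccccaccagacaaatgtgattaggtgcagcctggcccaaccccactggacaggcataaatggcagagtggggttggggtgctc
Slc18a2, the site across its start, chr19:59260863-59260892, plus strand: agcgctgtccgTGACGTCAgagccggactg
RefSeq promoter windows of 300 bases were at hand for 6 of the 9 genes, with 2 windows for Ddc. TGACGTCA, which reads the same on both strands, was found in 2 of these 7 windows, those of Th and Slc18a2. In Th its first base lay 45 bases before the start site, and in Slc18a2 it ran from 4 bases before the start site to 4 bases into the transcript. Among all 32851 promoter windows of this length, 588 (1.79%) held it. The letters TATAAA, searched on both strands, occurred in 2 of the 7 windows, one each for Ddc and Gch1, and in 13.6% of all windows. These matches describe letters only, and no binding was measured here.

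The libraries held 22339059 to 44025625 counts assigned to genes, and the correlation of log2 CPM across genes within a group was 0.988 to 0.995. CPM are read counts scaled to a common library size, here with TMM correction for composition. The labelled tissue was borne out by its markers, with 8 general sensory neuron genes summing to between 7326 and 8025 CPM and 6 glial genes to between 969.5 and 1226 CPM per library. Dach1 was at 95.9 CPM in AD1 OE against 32.6 CPM in Control on average, higher in each AD1 OE library than in any Control library. Xist and the Y-linked genes marked replicates 1, 2 and 4 of AD1 OE and replicate 4 of Control as male and the other 4 libraries as female, which bears on X-linked genes.

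Control replicate 1 stood apart from the other 7 libraries. Its transcripts of Phox2a, Hand1 and Hand2, regulators that specify sympathetic neurons, summed to 2.52 CPM against 0.223 to 0.497 CPM elsewhere. Phox2a had 30 counts in this library and 2 to 9 in the others, and Hand1 had 9 counts against 0 to 2. Of the 9 sympathetic markers 5 were highest in this library, and a list of 6 spinal cord markers summed to 13.5 CPM there against 3.55 to 9.18 CPM in the other libraries. Dbh, Ddc and Slc6a2 were also highest there, and each is therefore given with and without this library. The part of these other cell types in the results was not tested.

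Th (ENSMUSG00000000214, chromosome 7) was the gene whose rise chose the set. It was at 66.6, 58.9, 65.7 and 63.9 CPM in AD1 OE replicates 1 to 4 and at 24.6, 22.6, 18.8 and 18.8 CPM in Control replicates 1 to 4. Every AD1 OE library lay well above every Control library, and the groups were 63.8 ± 3.45 and 21.2 ± 2.90 CPM (mean ± SD, n = 4 each). The log2 fold change was 1.60 with a 95% confidence interval of 1.41 to 1.78, a 3.02-fold rise, and it lay between 1.54 and 1.67 under the 16 other settings. The interval describes the spread between these libraries. It takes no account of the choice of Th by this same rise and is not a test. The difference was of like size within each sex, with 63.1 CPM in the 3 male AD1 OE libraries against 18.8 CPM in the male Control library, and 65.7 CPM in the female AD1 OE library against 22.0 CPM in the 3 female Control libraries. These counts rest on 478 to 2944 reads per library.

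Apart from Th, no gene of the set passed the thresholds in the edgeR fit of all libraries. A gene was called when its adjusted p was under 0.005 and its absolute log2 fold change over 0.25 (edgeR quasi-likelihood test, Benjamini-Hochberg adjusted over 17721 tested genes). Of the 8 genes 7 had enough counts to be tested, and of these 0 were called by edgeR, beside 2.57% of all tested genes called in either direction. At an unadjusted p under 0.05 the count was 1 of 7 (Maoa), beside 18.6% of all tested genes. DESeq2 called 1 of the 7 (Maoa), beside 3.71% of all tested genes, and limma-voom called 0. Of the 7, 5 had a log2 fold change below 0 and 2 above, with a median of -0.32 beside 0.002 over all tested genes. Leaving out Control replicate 1 turned this to 2 below 0 and 5 above, with a median of 0.23 beside 0.008 over all genes then tested, and again 0 of the 7 were called. Separate embryos are not named in the labels for each library, so these p-values measure the spread between the samples as deposited.

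**Figure D1:**
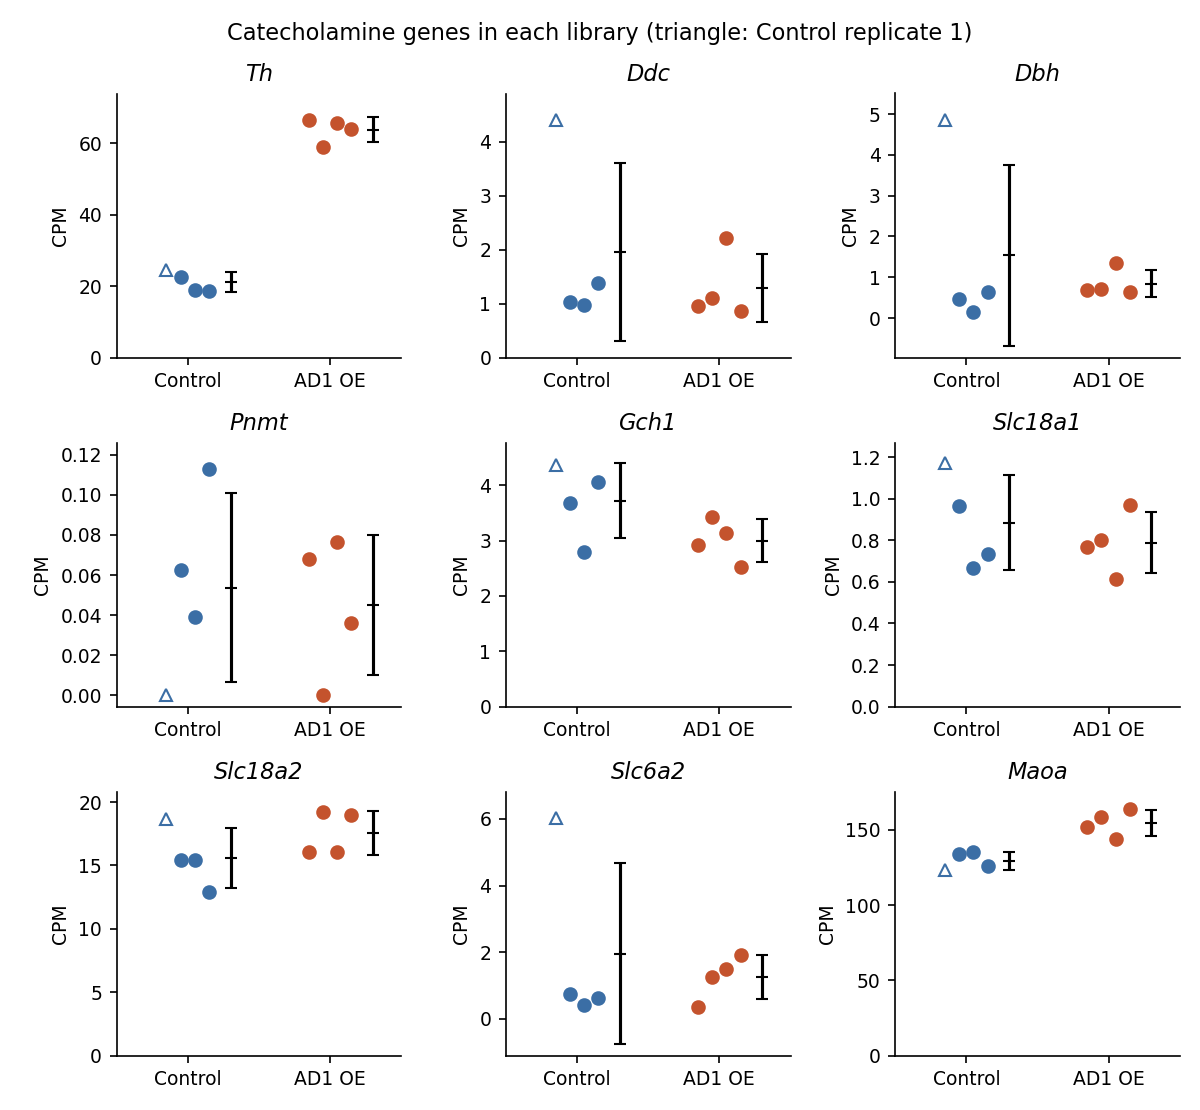
Level of each of the 9 genes in CPM (linear axis) in each of the 4 Control (blue) and 4 AD1 OE (orange) libraries, with the mean and SD of the group in black and Control replicate 1 as an open triangle. Th (58.9 to 66.6 against 18.8 to 24.6 CPM) and Maoa (143.7 to 163.5 against 123.3 to 135.1 CPM) show groups that do not overlap, and the triangle is far above all other points for Ddc, Dbh and Slc6a2.

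The enzymes after Th in the chain were scarce in all libraries, and the Control means of Ddc and Dbh depended on replicate 1. Ddc, the decarboxylase that acts on the product of Th, was at 0.950, 1.11, 2.22 and 0.864 CPM in AD1 OE and at 4.41, 1.03, 0.983 and 1.38 CPM in Control replicates 1 to 4. The groups overlapped, with Control replicate 1 highest and AD1 OE replicate 3 next. The log2 fold change was -0.57 (95% confidence interval -1.62 to 0.48, edgeR adjusted p = 0.584) and 0.15 (-0.55 to 0.86, adjusted p = 0.878) without Control replicate 1.

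Dbh, the noradrenaline-forming enzyme, was at 0.678, 0.713, 1.34 and 0.648 CPM in AD1 OE and at 4.86, 0.467, 0.157 and 0.650 CPM in Control replicates 1 to 4. Outside Control replicate 1 these are 4 to 35 counts per library. AD1 OE libraries 1 to 3 lay above Control libraries 2 to 4, and AD1 OE replicate 4 lay level with Control replicate 4. The log2 fold change turned from -0.78 (interval -2.47 to 0.92, edgeR adjusted p = 0.657) to 0.91 (0.02 to 1.80, adjusted p = 0.29) when Control replicate 1 was left out. Neither estimate passed the threshold.

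Pnmt, the enzyme of adrenaline synthesis, was at the floor of detection. It had 3, 0, 2 and 1 counts in AD1 OE and 0, 2, 1 and 4 counts in Control, where the floor was set at 3 counts per library, and it was not tested. Gch1, GTP cyclohydrolase, which makes the first intermediate of tetrahydrobiopterin, was at 2.92, 3.43, 3.14 and 2.52 CPM in AD1 OE and at 4.37, 3.68, 2.79 and 4.07 CPM in Control. Its groups overlapped, with 3 of the 4 Control libraries above all AD1 OE libraries, and the log2 fold change was -0.32 (interval -0.65 to 0.01, edgeR adjusted p = 0.291).

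Slc18a1 and Slc18a2, the vesicular monoamine transporters VMAT1 and VMAT2, were unequal in level and neither was called. Slc18a2 was at 16.1, 19.2, 16.1 and 19.0 CPM in AD1 OE and at 18.6, 15.5, 15.4 and 12.9 CPM in Control. Each AD1 OE library lay above Control libraries 2 to 4 and only Control replicate 1 overlapped, which gave a log2 fold change of 0.18 (interval -0.05 to 0.41, edgeR adjusted p = 0.413) with all libraries and 0.27 (0.06 to 0.48, adjusted p = 0.151) without that one. Within sex, the means of Slc18a2 were 18.1 CPM in male AD1 OE against 12.9 CPM in male Control, and 16.1 CPM in female AD1 OE against 16.5 CPM in female Control. The female Control mean includes replicate 1 at 18.6 CPM, beside 15.5 and 15.4 CPM in replicates 2 and 3. The male Control and female AD1 OE values each come from 1 library. An exon of Slc18a2 overlaps a gene on the opposite strand over 2.12% of its exon bases, and no other gene of the 9 shares exons. Slc18a1 lay between 0.612 and 0.971 CPM in AD1 OE and between 0.668 and 1.17 CPM in Control, with a log2 fold change of -0.15 (interval -0.65 to 0.35, edgeR adjusted p = 0.792).

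Slc6a2, the noradrenaline transporter of the plasma membrane, also depended on Control replicate 1. It was at 0.362, 1.25, 1.49 and 1.91 CPM in AD1 OE and at 6.03, 0.748, 0.432 and 0.621 CPM in Control replicates 1 to 4. Replicates 2 to 4 of AD1 OE lay above replicates 2 to 4 of Control, AD1 OE replicate 1 was the lowest of all and Control replicate 1 the highest. The log2 fold change was -0.61 (interval -2.29 to 1.07, edgeR adjusted p = 0.737) with all libraries and 0.98 (-0.06 to 2.03, adjusted p = 0.334) without Control replicate 1.

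**Figure D2:**
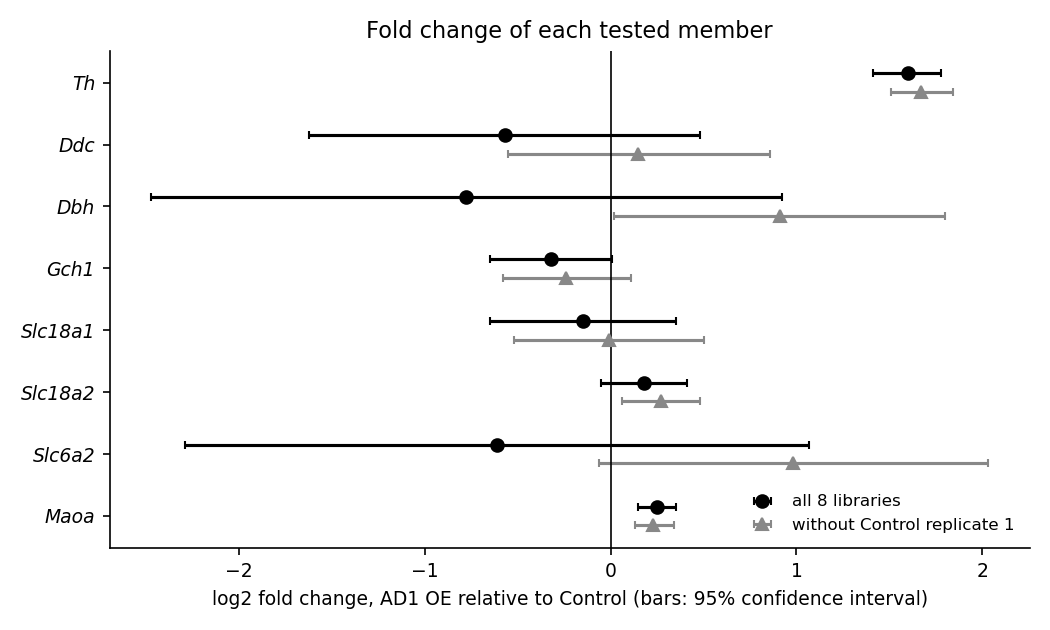
Log2 fold change of the 8 tested genes in AD1 OE relative to Control (horizontal axis, bars are 95% confidence intervals) with all 8 libraries (black circles) and without Control replicate 1 (grey triangles). Th, whose interval is a description only, stands near 1.60 in both. Maoa has a narrow interval above 0, and Dbh, Ddc and Slc6a2 cross from below 0 to above 0 when that library is left out.

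Maoa, monoamine oxidase A of the outer mitochondrial membrane, was the only one of the other 8 genes whose groups did not overlap. Maoa (ENSMUSG00000025037, on chromosome X) measured 151.8, 158.4, 143.7 and 163.5 CPM in AD1 OE replicates 1 to 4 and 123.3, 133.9, 135.1 and 125.7 CPM in Control. Its lowest AD1 OE library lay above its highest Control library, as was the case in either direction for 13.0% of all tested genes. Its log2 fold change of 0.25 had a standard error of 0.05 (interval 0.15 to 0.35), and its adjusted p of 0.00537 in the edgeR fit lay just over the threshold of 0.005. It was called in 3 of 16 other settings, DESeq2 (adjusted p = 3.95e-05), no expression filter and without AD1 OE replicate 3, and its adjusted p ranged up to 0.0347.

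Because Maoa is X-linked and the sexes were unevenly divided, its values were compared within sex. The 3 male AD1 OE libraries averaged 157.9 CPM against 125.7 CPM in the male Control library, and the female AD1 OE library was at 143.7 CPM against 130.8 CPM on average in the 3 female Control libraries. With sex as a term in the fit the log2 fold change was 0.23 (edgeR adjusted p = 0.0347). Maob, the neighbouring isoform on the same chromosome, was at 15.4 ± 0.482 CPM in AD1 OE against 12.0 ± 1.03 CPM in Control (mean ± SD, n = 4 each) with a log2 fold change of 0.35, also short of the threshold (edgeR adjusted p = 0.00971). Its groups did not overlap, as was so for 13.0% of all tested genes.

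Levels were compared between genes per kilobase of exon model. In Control, Maoa was the most abundant of the 9 at 31.1 ± 1.41 CPM per kb, followed by Th at 8.96 ± 1.23 CPM per kb and Slc18a2 at 2.99 ± 0.449 CPM per kb (mean ± SD, n = 4). The next were Gch1 at 0.596, Dbh at 0.570, Ddc at 0.437, Slc6a2 at 0.311 and Slc18a1 at 0.164 CPM per kb, and each of these 5 overlapped its neighbour in that order across libraries. Pnmt was last at 0.0465 CPM per kb. Without Control replicate 1 the Control levels were 0.254 CPM per kb for Ddc, 0.158 for Dbh, 0.146 for Slc18a1 and 0.0955 for Slc6a2, so that the order among these 4 changed while Maoa, Th, Slc18a2 and Gch1 kept the lead in that sequence. In AD1 OE the same 4 genes led, with Th at 27.0 ± 1.46 CPM per kb, still below Maoa at 37.0 ± 2.05 CPM per kb. They were followed by Dbh at 0.314 ± 0.123, Ddc at 0.288 ± 0.141, Slc6a2 at 0.199 ± 0.104 and Slc18a1 at 0.146 ± 0.0273 CPM per kb.

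Th therefore stood far above its partner enzymes in most libraries of both groups. In CPM, not corrected for length, the ratio of Th to Dbh was 98.1, 82.6, 49.1 and 98.7 in AD1 OE replicates 1 to 4 and 5.07, 48.3, 119.5 and 28.9 in Control replicates 1 to 4. The lowest ratio was in Control replicate 1 and the highest in Control replicate 3, where Dbh rests on 4 counts, so the ratios of the groups overlapped. The ratio of Th to Ddc was 29.6 to 74.0 in AD1 OE and 5.58 to 21.9 in Control, and this difference carries the rise of Th that chose the set.

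Dbh, Ddc and Slc6a2 were high in Control replicate 1, the library that was also high in sympathetic regulators and spinal cord markers. The 3 genes summed to 15.3 CPM there against 1.57 to 5.05 CPM in the other 7 libraries. Th was 24.6 CPM in that library, the highest of the 4 Control libraries, which lay between 18.8 and 22.6 CPM otherwise. The sympathetic regulators summed to 0.223 to 0.497 CPM in the AD1 OE libraries and to 0.28 to 0.393 CPM in Control replicates 2 to 4. AD1 OE replicate 3 had the highest of both sums among the other 7 libraries.

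**Figure D3:**
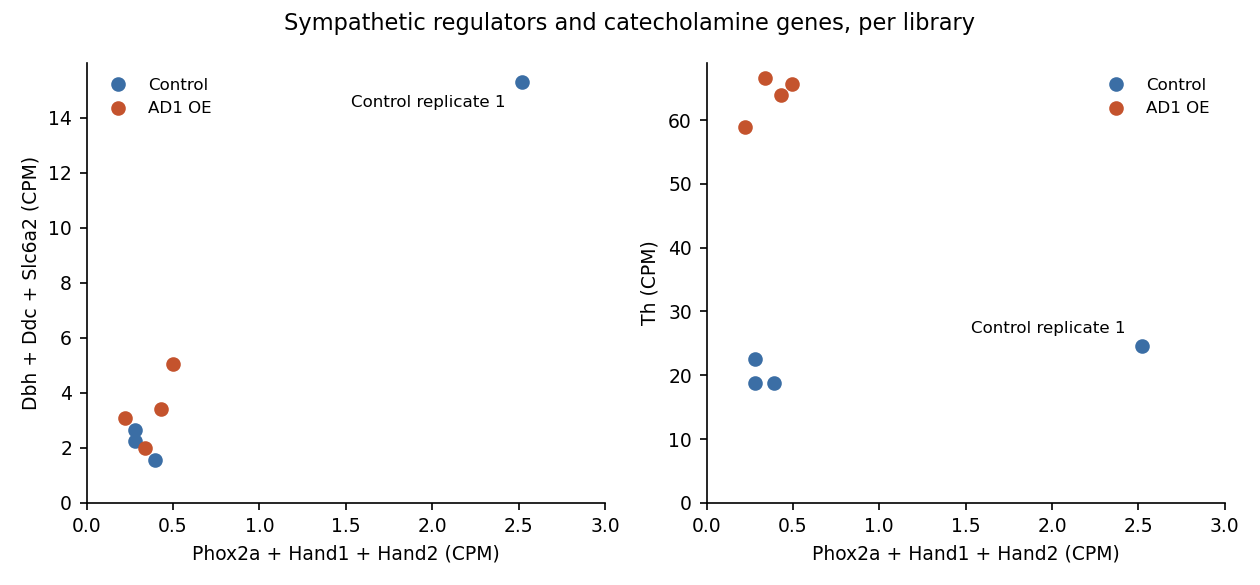
Each point is a library, with the summed level of Phox2a, Hand1 and Hand2 in CPM on the horizontal axis of both panels. The left panel plots the sum of Dbh, Ddc and Slc6a2, where Control replicate 1 stands alone at 15.3 CPM, and the right panel plots Th, where that library is the highest Control library at 24.6 CPM and the AD1 OE libraries lie at 58.9 to 66.6 CPM.

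Among 9 markers of sympathetic neurons, 5 were tested, 1 was called higher and 0 lower in AD1 OE, beside 0.784% and 1.78% of all tested genes. The called gene was Chrna3, the α3 subunit of the ganglionic nicotinic receptor, which was at 16.1 CPM in AD1 OE against 9.05 CPM in Control (log2 fold change 0.83, edgeR adjusted p = 0.00178). In Control replicates 1 to 4 it was at 10.7, 10.3, 8.29 and 6.95 CPM. Its level thus did not stand out in replicate 1, where the sympathetic regulators did. Which cells carried it was not tested. Chrna3 was called in 12 of 16 other settings, and leaving out AD1 OE replicate 1, AD1 OE replicate 4 or Control replicate 3 ended its call, with adjusted p of at most 0.00753. Its partner subunit gene Chrnb4 had a log2 fold change of 0.58 and was not called (edgeR adjusted p = 0.0308). Npy, at 0.743 and 0.966 CPM, and Ecel1, at 1.61 and 3.02 CPM, in AD1 OE and Control, were not called (edgeR adjusted p = 0.512 and 0.394), and without Control replicate 1 the Control mean of Ecel1 was 1.72 CPM. The summed list ran from 24.7 to 34.2 CPM in AD1 OE and was 31.1 CPM in Control replicate 1. It ran from 17.5 to 20.5 CPM in the other 3 Control libraries, so the overlap between groups rested on replicate 1. The higher sum in AD1 OE lay mainly in Chrna3 and Chrnb4 (6.98 CPM in AD1 OE). Without Control replicate 1 their Control means were 8.52 and 4.38 CPM. Against the same Control libraries, Gata2 was at 2.88 and 2.80 CPM, Npy at 0.743 and 0.973 CPM and Gata3 at 0.314 and 0.125 CPM. Hand1 had 0 counts in Control replicates 3 and 4.

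Markers of C-LTMRs other than Th were read next. Of 10 such markers, all tested, 0 were called higher, beside 0.784% of all tested genes, and 3 were called lower, beside 1.78% of all tested genes. The 3 were Cdh9, a cadherin (log2 fold change -0.91), Gfra2, the neurturin co-receptor (-0.58), and Tafa4, a secreted chemokine-like protein (-0.38), with edgeR adjusted p of 2.15e-04, 2.30e-04 and 6.28e-04. Slc17a8, the vesicular glutamate transporter VGLUT3, was at 4.27 CPM in AD1 OE against 4.69 CPM in Control (log2 fold change -0.15, edgeR adjusted p = 0.691). Bnc2 and Kcnd3 lay above 0 (log2 fold change 0.23 and 0.09) and Runx1 near 0 (-0.06). They were not called (edgeR adjusted p = 0.133, 0.322 and 0.436). Of the 10, 8 had a log2 fold change below 0, and the median was -0.19 beside 0.002 over all tested genes. At an unadjusted p under 0.05 there were 7, Bnc2 among them, beside 18.6% of all tested genes. Not all markers of the list are particular to C-LTMRs. The study describes Ret in non-peptidergic nociceptors and Runx1 in the specification of nociceptors. Which cells carried the lower levels was not tested.

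Markers of other cells were read from the same fit. Of 8 mast cell markers, mast cells being another source of monoamine enzymes, 7 were tested, 5 had an unadjusted p under 0.05 (18.6% of all tested genes did) and 1 was called, Cpa3, lower in AD1 OE (log2 fold change -0.66, edgeR adjusted p = 0.0048), beside 1.78% of all tested genes called lower. The same 5 had a log2 fold change below 0, and the rest of the tested markers lay above 0. The median was -0.41 beside 0.002 over all tested genes. Cpa3 was called in 6 of 16 other settings, with adjusted p up to 0.0209, and leaving out any library except AD1 OE replicate 2 ended its call. No gene was called among the markers of sensory neurons (8 tested, 2 at an unadjusted p under 0.05), glia (6 and 2), fibroblasts (6 and 4), endothelium (6 and 0), mural cells (6 and 1), macrophages (6 and 1), spinal cord (5 and 1) and adrenal cortex (1 and 0). Of the adrenal cortex markers Star was tested, and Cyp11a1 averaged 0.208 CPM in AD1 OE against 0.25 CPM in Control.

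The wider pathway was described with 68 further genes in 7 lists, of which 53 were tested. In AD1 OE 1 was called higher and 3 were called lower, beside 0.784% and 1.78% of all tested genes. At an unadjusted p under 0.05 there were 18, beside 18.6% of all tested genes, and the median log2 fold change was -0.04. The 3 sympathetic regulators, Gata2 and Gata3 belong to both the pathway and the sympathetic list, and Hdc to both the pathway and the mast cell list.

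The gene called higher was Moxd1, a copper monooxygenase related in sequence to Dbh whose substrate is not established. Moxd1 was at 26.1, 37.2, 32.4 and 34.9 CPM in AD1 OE and at 16.3, 17.1, 11.7 and 12.4 CPM in Control replicates 1 to 4. The groups did not overlap, as was so for 13.0% of all tested genes, and the log2 fold change of 1.18 had a standard error of 0.13 (edgeR adjusted p = 1.92e-04). The list of related enzymes held 6 genes, of which 3 were tested. Tph2, a tryptophan hydroxylase of serotonin synthesis, had a log2 fold change of 0.36 and Hdc, histidine decarboxylase, one of -0.41, and neither was called (edgeR adjusted p = 0.0789 and 0.24).

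Membrane transport and granule storage held the genes called lower. Slc29a4, the plasma membrane monoamine transporter of the low-affinity uptake route, was at 53.5, 48.0, 56.0 and 53.7 CPM in AD1 OE and at 70.3, 70.9, 68.7 and 67.9 CPM in Control, with a log2 fold change of -0.39 (edgeR adjusted p = 3.40e-04). Slc7a8, a carrier of large neutral amino acids that include tyrosine, lay between 23.3 and 24.9 CPM in AD1 OE and between 28.6 and 32.5 CPM in Control (log2 fold change -0.39, edgeR adjusted p = 9.48e-04). Both genes had groups that did not overlap, as had 13.0% of all tested genes. Of the 8 tested transport genes 2 were called lower and 0 higher, beside 1.78% and 0.784% of all tested genes. Slc7a5 and Slc3a2, the subunits of another such carrier, had log2 fold changes of -0.18 and -0.17 and were not called (edgeR adjusted p = 0.163 and 0.0468). Without AD1 OE replicate 1 or without Control replicate 2, Slc7a8 was no longer called, at edgeR adjusted p of 0.00539 and 0.00517.

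Of the 6 granule genes, all tested, 1 was called lower, beside 1.78% of all tested genes. Scg2, secretogranin II, was at 176.8, 150.6, 160.1 and 157.3 CPM in AD1 OE and at 224.0, 217.3, 203.2 and 203.7 CPM in Control, with a log2 fold change of -0.39 (edgeR adjusted p = 5.42e-04). Scg3 passed the limit on p but not on fold change (log2 fold change -0.24, edgeR adjusted p = 0.00125), and Chga, chromogranin A, had a log2 fold change of -0.16 and was not called (edgeR adjusted p = 0.0294). The groups of all 3 genes did not overlap, as was so for 13.0% of all tested genes. Chgb was at 88.9 and 95.4 CPM and was not called (edgeR adjusted p = 0.261).

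In the remaining lists 0 genes were called by edgeR, beside 2.57% of all tested genes. The cofactor list, tested in full with 8 genes, had a median log2 fold change of -0.04. It held 2 genes at an unadjusted p under 0.05, beside 18.6% of all tested genes. These 2 were Spr, sepiapterin reductase, the last enzyme of cofactor synthesis, at 38.0 and 42.9 CPM in AD1 OE and Control (log2 fold change -0.18, edgeR adjusted p = 0.125), and Pcbd1, at 8.93 and 10.8 CPM (log2 fold change -0.27, edgeR adjusted p = 0.0482). The groups of Pcbd1 did not overlap, as was so for 13.0% of all tested genes. Qdpr, which regenerates the cofactor, was at 55.7 and 56.5 CPM in AD1 OE and Control, and Pts, the second enzyme of its synthesis, at 37.6 CPM in both. The breakdown list beside Maoa held 9 tested genes with 1 at an unadjusted p under 0.05 (Maob) and a median log2 fold change of 0.03. Its most abundant gene, the aldehyde-reducing enzyme Akr1a1, was at 487.7 and 515.9 CPM (log2 fold change -0.08, edgeR adjusted p = 0.301).

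The receptors for catecholamines were low, with 10 of 15 tested and 2 at an unadjusted p under 0.05. These were Drd3, at 0.229 and 0.707 CPM in AD1 OE and Control, and Adra1d, at 0.677 and 1.17 CPM. Their log2 fold changes were -1.54 and -0.77, and neither was called (edgeR adjusted p = 0.0239 and 0.0663). Adra2a, the most abundant, was at 18.7 and 19.3 CPM in AD1 OE and Control (edgeR adjusted p = 0.795). Of the 14 regulators of catecholaminergic identity 9 were tested, with 2 at an unadjusted p under 0.05 and a median log2 fold change of -0.23. The 2 went opposite ways. Nr4a2, which is required in midbrain dopamine neurons, was at 10.1 and 8.36 CPM, a log2 fold change of 0.27, and was not called (edgeR adjusted p = 0.0711). Its groups did not overlap, as was so for 13.0% of all tested genes. Insm1 was at 6.71 and 9.08 CPM, a log2 fold change of -0.44 with groups that overlapped, and was not called (edgeR adjusted p = 0.0846). Nr4a1, related to Nr4a2, was at 42.6 and 43.8 CPM.

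**Figure D4:**
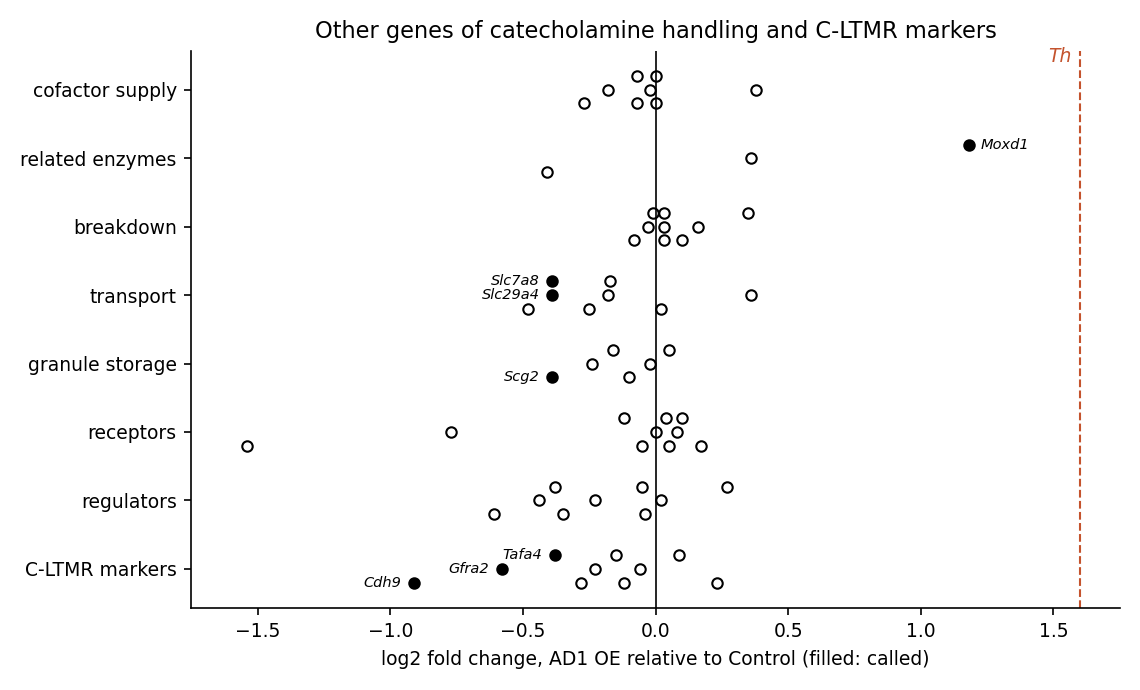
Log2 fold change in AD1 OE relative to Control (horizontal axis) of each tested gene of the 7 pathway lists and of the C-LTMR markers, 1 point per gene, filled and named where called, with the value of Th as a dashed line. Moxd1 at 1.18 is the nearest to Th, and the other filled points, Slc29a4, Slc7a8, Scg2, Tafa4, Gfra2 and Cdh9, lie below 0.

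The genes most like Th across the 8 libraries were sought among the 15518 tested genes whose mean reached 1 CPM. Likeness was the root mean square difference from Th in log2 CPM relative to the Control mean, in which a smaller value is closer, and it is largely set by the size of the difference between groups. Dach1 itself was closest at 0.167, followed by Kirrel3os at 0.253, Reg3b at 0.288, Moxd1 at 0.346 and Naip1 at 0.362. Of the other catecholamine genes with that mean level, Maoa ranked 649 and Slc18a2 ranked 1146, while Gch1, Dbh, Ddc and Slc6a2 ranked 14743 to 15261. These ranks describe the 8 libraries and carry no test.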

How the data were processed

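DRG were dissected from E18.5 embryos, and total RNA was made into libraries with the Illumina Stranded mRNA Prep for sequencing on a NovaSeq6000. The authors demultiplexed with bcl2fastq 2.20.0.422, aligned to GRCm39 with STAR 2.7.8a and counted with featureCounts 2.0.1, and they deposited raw counts per Ensembl gene for each library, without normalization or filter. The sources used here do not state a strand setting for counting, so reads of overlapping genes on opposite strands may be shared. Replicates were not pooled.

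Groups and replicate numbers were taken from the sample titles and genotypes. Symbols, exon overlaps and exon lengths came from GENCODE M21, whose build GRCm38 is older than the one counted on (52133 of 55414 IDs had a symbol, all 9 genes matched), and promoter sequences from RefSeq on GRCm38.p6. Gene-level counts were tested in R 4.3.3 with edgeR 4.0.16 (filterByExpr, 17721 genes kept; TMM; quasi-likelihood F test on genotype alone; Benjamini-Hochberg over all tested genes). A call required adjusted p below 0.005 with a log2 fold change beyond 0.25 in size, as in the study's comparison. CPM used TMM-scaled library sizes, and CPM per kb divided these by the exon length. Profiles were compared in log2 CPM (prior count 2). The members, the 7 pathway lists and the 11 marker lists (sympathetic, C-LTMR, sensory neuron, mast cell, glia, fibroblast, endothelium, mural, macrophage, spinal cord, adrenal cortex) were chosen with earlier results of these data known. Some genes of the lists are not reported here. The text names the 9 genes, called genes of each list, the most abundant genes of each list, any sympathetic or C-LTMR marker, Dach1, and the 5 genes most like Th. Maob, Pcbd1, Drd3 and Adra1d were named after their values had been seen.

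Depth was 22339059 to 44025625 counts per library. All replicate pairs differed by more than counting noise (chi-square per degree of freedom 4.37 to 12.1), so none was counted as a duplicate. Counts carried no molecular identifiers. Alternatives were DESeq2 1.42.0, limma-voom (limma 3.58.1), RLE and upper-quartile scaling, 2 other filters, 2 other thresholds, sex or replicate number as a term, and leaving out each library. The test code was checked on simulated counts before use.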

Additional observations from a re-analysis of the deposited data

Results flagged for a closer look

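In 50 groups of 4 libraries, 1 for each group and gene examined, 8 had a highest or lowest library that stood away from the other 3 by Dixon's test, where chance gives about 1 in 20. Of these, 7 concern Control replicate 1. It was the highest Control library for Ddc at 4.41 CPM, for Dbh at 4.86 CPM, for Slc6a2 at 6.03 CPM, for Hand1 at 0.405 CPM, for Hand2 at 0.765 CPM and for Phox2a at 1.35 CPM, and the lowest for Slc7a8 at 28.57 CPM. The remaining one is Dbh in AD1 OE replicate 3, which at 1.339 CPM was the highest of its group. The genes are not independent of each other, since they were read in the same libraries.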

How the results depend on the processing

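Among the single-gene results of the members besides Th, the called pathway genes and Maob, 5 changed sign, none of them called. Without Control replicate 1, Ddc went to 0.15, Dbh to 0.91 and Slc6a2 to 0.98 on the log2 scale, limma-voom gave Dbh 0.24, and sex as a term gave Slc6a2 0.01. Over all libraries left out singly, Ddc ranged from -0.94 to 0.15, Dbh from -1.15 to 0.91 and Slc6a2 from -0.94 to 0.98. The library left out is the one that holds the high values. For the other 2 sign changes the cause was not tested. Further listed genes that were not called also changed sign in some settings. Among them were Slc17a8 (-0.31 to 0.03) and Gata2 (-0.25 to 0.08). The count of called genes was 455. It was 747 with no expression filter, 1161 at an adjusted p below 0.05 whatever the fold change, and 129 at an adjusted p under 0.05 with an absolute log2 fold change over 1. Leaving out single libraries gave 289 (without AD1 OE replicate 1) to 420 genes. Of the 8 genes other than Th, 1 (Maoa) was called with DESeq2, with no filter and at an adjusted p under 0.05, and 0 to 1 when single libraries were left out, 1 being without AD1 OE replicate 3. The pathway count of 4 became 10 at an adjusted p under 0.05 and 2 when an absolute log2 fold change over 1 was also required, and 3 to 5 when single libraries were left out. The replicate number as a block gave 348 called genes (333 shared with the fit without it), 0 of the other 8 genes and 4 pathway genes, with Maoa at an adjusted p of 0.018. Deviations of same-numbered libraries correlated at -0.00991, -0.0541, -0.035 and 0.313, and 1 of 4 libraries correlated best with its own number. The value of 0.313 belongs to replicate 4, which was male in both groups, and that of -0.035 to replicate 3, which was female in both. The labels give no pairing beyond the number, and these correlations cannot show whether litters or handling were shared. Besides Maoa and Maob (called in 3 of 16 settings each) and Slc7a8 (14 of 16), the call depended on the setting for further genes. These were Chrna3 (12 of 16), Cpa3 (6 of 16), Chrnb4 (3 of 16), and Scg3, Drd3 and Fabp7 (1 of 16 each). Moxd1, Slc29a4, Scg2, Cdh9, Gfra2 and Tafa4 were called in all 16 settings, which do not include the other thresholds. The limit of 1 on the log2 scale was met by Moxd1 but not by Slc29a4, Scg2, Cdh9, Gfra2 or Tafa4. At 0 to 4 counts Pnmt could not be compared, and Dbh and Slc6a2, at 4 to 53 counts outside Control replicate 1, have wide intervals.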
